A study of Mus musculus with 2 samples.

Results

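The subunits of ATP-dependent chromatin remodelling complexes were examined in mouse embryonic stem cells labelled MOF-/- and in wild-type embryonic stem cells. The members were all probe sets annotated to exactly 1 gene whose symbol belongs to the SWI/SNF, ISWI, CHD, NuRD and INO80 families or to the related ARID and methyl-CpG binding domain (MBD) families. They numbered 157 probe sets of 60 genes, out of 45101 probe sets on the array, of which 34945 named 1 gene and together covered 18194 genes. Of the 60 genes, 6 ARID, 3 MBD and 2 SNF2 ATPase genes encode proteins outside these complexes, but are counted as remodelling subunits below. The selection pattern used gene symbols only, but it was drawn up with earlier results of these data known. The compared groups were 1 culture labelled MOF-/- (Mof null) and 1 culture labelled MOF +/+ (wild type), and total RNA of each was hybridised to 1 Affymetrix array. Both lines were C57BL/6 embryonic stem cells derived at day 3.5 post coitum and used at passage 15 to 18. Both had been kept on mouse embryonic fibroblast feeders with LIF and then passed 2 times without feeders. The labels do not say how the Mof allele was inactivated or whether each line is 1 clone. Values are RMA expression values on a log2 scale, and a difference is the Mof null value minus the wild-type value. With 1 array per genotype no test was possible and no value carries a replicate error, so genes were counted by size, with at least 2-fold (1 log2 unit) as the limit.

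Remodelling complexes use the energy of ATP to slide, evict or exchange nucleosomes. Each is built around a catalytic subunit of the SNF2 type, joined by subunits that bind modified histones, methylated DNA or other factors, and many positions in a complex can be filled by either of several paralogous proteins. In mouse embryonic stem cells the SWI/SNF complex is known to be built mainly around Smarca4 with Smarcc1 and Smarcd1, whereas Smarca2, Smarcc2 and Smarcd3 are typical of differentiated cells, and NuRD with Chd4 and Mbd3 is required for normal lineage commitment.

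Some facts of the arrays bear on every value. Kat8, the gene that encodes Mof, read 8.37 on the Mof null array and 8.06 on the wild-type array on its 1 probe set, so the arrays were not separated by this transcript in the labelled direction, and the labels do not place the probe set inside or outside the deleted part. All directions therefore rest on the labels. The difference between probes at the 3′ and 5′ ends of GAPDH control transcripts, a measure of RNA integrity, was 0.061 on the Mof null array and 0.15 on the wild-type array, that of beta-actin was 0.65 on the Mof null array and 0.38 on the wild-type array, and that of the transferrin receptor was 1.80 on the Mof null array and 1.86 on the wild-type array. All 10 embryonic stem cell markers, among them Pou5f1, Nanog, Sox2 and Zfp42, were well above the level filter on both arrays, and their summed linear level was 67466 on the Mof null array and 43656 on the wild-type array. All 11 fibroblast markers found, led in the list by Col1a1, Col1a2, Col3a1 and Thy1, were at least 2-fold lower on the Mof null array, with a summed linear level of 28808 there against 89049 on the wild-type array. All 10 macrophage markers, including Ptprc, Csf1r, Cd68 and Lyz2, were also at least 2-fold lower, with a sum of 3242 on the Mof null array against 14062 on the wild-type array. Of 9 expressed endoderm markers 7 were at least 2-fold higher, including Amn, Cubn, Sox17 and Gata4, and the summed level of the 10 found was 12791 on the Mof null array against 4806 on the wild-type array. RMA gives no value of 0, and 2 macrophage markers and 1 endoderm marker lay under the level filter on the Mof null array, against 0 and 2 on the wild-type array. These marker lists differed between the same arrays on which every result below rests, and their part in those results was not tested. In RNA of whole cultures, fewer cells of a type and less RNA per cell cannot be told apart. The only measurable spread was that between expressed probe sets of the same gene, whose differences had a pooled SD of 0.33 log2 units over 5362 genes and 0.29 over the 38 member genes that have several.

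Few member genes differed by 2-fold between the arrays. A gene was represented by its brightest probe set and counted as expressed if its value on either array reached 6.02, the array median, and 59 of the 60 genes passed, each of them on both arrays. The neuronal NuRD ATPase Chd5 did not pass, with 5.90 on the Mof null array and 5.85 on the wild-type array. Of the 59 genes, 3 were at least 2-fold lower on the Mof null array, namely Smarca2, Mbd1 and Chd3, against 11.9% of all 12015 expressed genes. Arid3b was the 1 gene at least 2-fold higher, against 5.09% of all expressed genes. Together these 4 genes made up 6.78% of the members, against 17.0% of all expressed genes. Of the 4, Mbd1 and Arid3b are among the MBD and ARID genes outside the remodelling complexes. At 1.5-fold, 9 members were higher and 4 lower, 22.0% of the members, against 36.5% of all expressed genes (17.3% higher and 19.2% lower). No member reached 4-fold, which 3.53% of all expressed genes did, 0.291% higher and 3.24% lower.

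**Figure D1:**
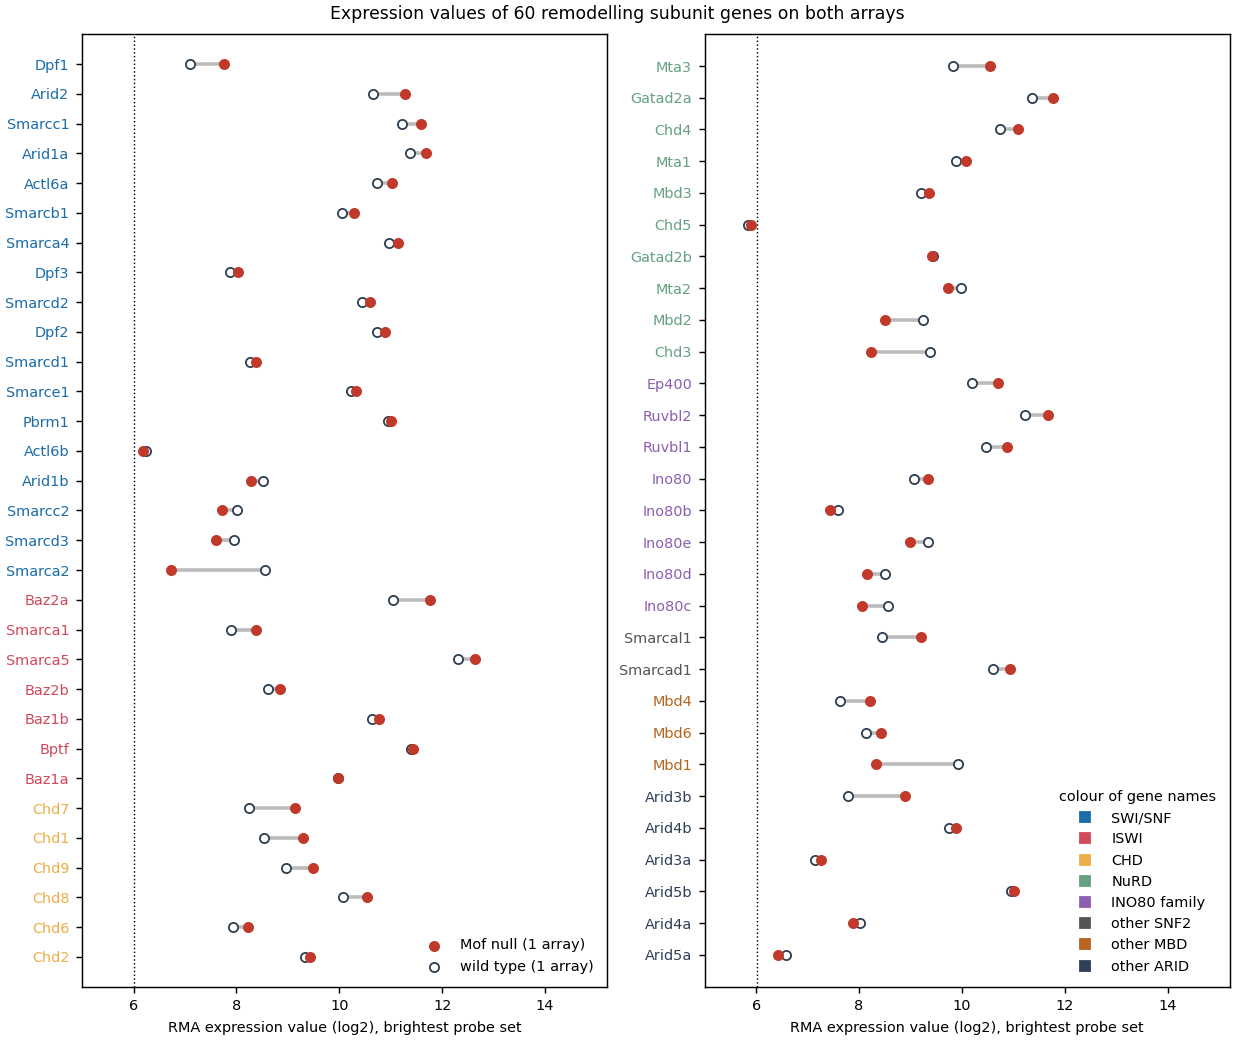
RMA expression values (log2, x axis) of the 60 remodelling subunit genes on the Mof null array (filled red) and the wild-type array (open), each gene on its brightest probe set, with gene names coloured by family and the level filter at 6.02 dotted. The longest gaps are those of Smarca2, Mbd1, Chd3 and Arid3b, and Chd5 alone lies left of the filter.

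Small positive differences were the most common pattern. Of the 59 genes 42 were higher and 17 lower on the Mof null array by any amount, and 71.2% were therefore higher, against 56.7% of all expressed genes. The median difference of the members was 0.16 (SD over genes 0.53, n = 59 genes), against 0.10 over all expressed genes. Relative to the median of the embryonic stem cell markers, a scaling that lowers every gene by 0.67 and was chosen after seeing the data, 6 of the 59 remained positive, namely Chd1, Chd7, Baz2a, Mta3, Smarcal1 and Arid3b, and the median turned to -0.52. That scaling also changes the split over all genes, with 2.29% of all calls at 2-fold in the higher direction, whereas the unscaled values put 29.95% there. The members were weighted to bright signals. When all expressed genes were ordered by mean level and cut into 4 bins of equal size, 4 members lay in the lowest bin, 19 and 13 in the bins above it and 23 in the highest. From the lowest bin to the highest, 22.8%, 20.6%, 14.3% and 10.3% of all expressed genes passed 2-fold, and 0, 3, 1 and 0 members did so.

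**Figure D2:**
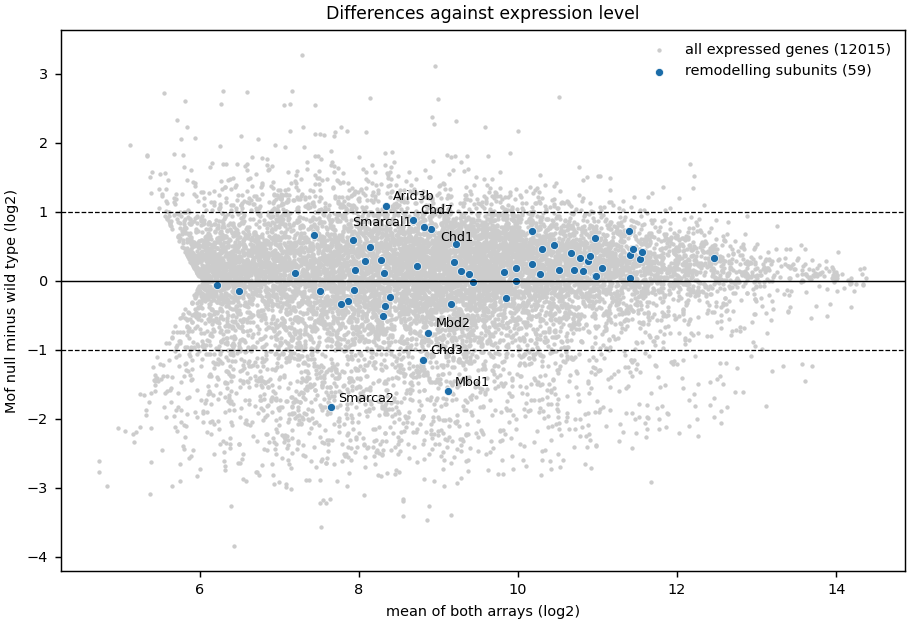
Difference (Mof null minus wild type, log2, y axis) against mean value of both arrays (log2, x axis) for the 59 expressed remodelling subunits (blue) over all 12015 expressed genes (grey), with dashed lines at 2-fold. Only Smarca2, Mbd1, Chd3 and Arid3b lie outside the dashed lines, and none of the 23 members in the highest bin of mean level does.

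SWI/SNF complexes, which evict and slide nucleosomes at enhancers and promoters, showed the largest single difference among the members, in an exchangeable ATPase. Smarca2, which encodes one of the alternative catalytic subunits, read 6.73 on the Mof null array and 8.56 on the wild-type array, a difference of -1.83 or 3.55-fold lower, and 4.35% of all expressed genes lay lower still. Its other expressed probe set read 5.97 on the Mof null array and 6.97 on the wild-type array, marginally short of 2-fold lower, and it passed the level filter through the wild-type array alone. The paralogous ATPase gene Smarca4, which is essential for embryonic stem cell self-renewal, read 11.15 on the Mof null array and 10.97 on the wild-type array. Its probe sets differed by 0.17 and 0.18, so the paralogs lay on opposite sides of 0, with a gap of 2.01 log2 units between their differences.

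The promoter windows of this ATPase pair and of Arid3b, the member higher by 2-fold, are shown because they carry the largest divergence between paralogs and the largest positive difference. They run from 250 bases before to 50 after the start of the RefSeq gene on GRCm38.p6, read 5′ to 3′ on the strand of the gene. Capitals mark every GC box (GGGCGG or its complement CCGCCC) and CCAAT box (CCAAT or its complement ATTGG). Smarca2 lies on chromosome 19 at chr19:26604910-26605209 on the plus strand, Smarca4 on chromosome 9 at chr9:21615919-21616218 on the plus strand, and the first of the Arid3b windows at chr9:57836730-57837029 on the minus strand.
Smarca2: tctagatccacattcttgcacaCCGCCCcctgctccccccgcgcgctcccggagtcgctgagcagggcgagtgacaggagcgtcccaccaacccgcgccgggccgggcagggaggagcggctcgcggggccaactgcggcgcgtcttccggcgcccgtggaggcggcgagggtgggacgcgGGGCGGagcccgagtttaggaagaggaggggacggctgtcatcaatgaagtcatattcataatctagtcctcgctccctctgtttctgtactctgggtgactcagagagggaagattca
Smarca4: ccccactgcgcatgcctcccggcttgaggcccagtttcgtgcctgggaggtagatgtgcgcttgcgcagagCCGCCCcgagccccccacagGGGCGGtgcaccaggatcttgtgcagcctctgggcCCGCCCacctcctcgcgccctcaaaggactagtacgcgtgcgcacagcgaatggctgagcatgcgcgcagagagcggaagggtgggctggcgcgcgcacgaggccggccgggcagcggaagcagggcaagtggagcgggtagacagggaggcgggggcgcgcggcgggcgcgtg
Arid3b: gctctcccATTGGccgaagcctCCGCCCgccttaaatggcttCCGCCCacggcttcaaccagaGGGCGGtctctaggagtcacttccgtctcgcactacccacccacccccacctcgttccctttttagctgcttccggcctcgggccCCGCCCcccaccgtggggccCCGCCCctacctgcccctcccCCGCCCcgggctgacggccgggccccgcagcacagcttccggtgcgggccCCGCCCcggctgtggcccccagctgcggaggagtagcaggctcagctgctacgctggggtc
The Smarca2 window held 2 GC boxes and 29 CpG dinucleotides at 65.7% G and C, and the Smarca4 window held 3 GC boxes and 33 CpG dinucleotides at 72.3%. The Arid3b window held 7 GC boxes, 1 CCAAT box and 25 CpG dinucleotides, while a further Arid3b window, at chr9:57836435-57836734, held none of either box. The paralogous ATPase genes thus both have CpG-rich windows, and the letters searched did not set them apart.

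CpG-rich promoters were the rule among the members. Windows were available for 46 of the 60 genes, 56 windows in all, and 83.9% of them held a GC box, against 62.6% of the 12433 windows of expressed genes on the array and 35.7% of all 32851 windows. The median window held 25 CpG dinucleotides, against 20 for expressed genes and 7 for all genes, and the ratio of observed to expected CpG passed 0.6 in 89.3%, 68.6% and 35.8% of the 3 sets. A CCAAT box was found in 46.4% of the member windows, 37.5% of those of expressed genes and 37.4% of all. The letters TATAAA occurred in 8.93%, 7.42% and 13.6%, and the E-box CACGTG in 5.36%, 9.98% and 7.15%, with both strands searched throughout. These matches describe the sequence of the windows, and windows of the same gene can overlap.

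The scaffold paralogs of SWI/SNF lay on opposite sides of 0 too, at smaller sizes, and in the Smarcd group only Smarcd3 was lower. Smarcc1, the scaffold subunit of the embryonic stem cell complex, read 11.59 on the Mof null array and 11.21 on the wild-type array, and its expressed probe sets differed by 0.38, 0.74 and 0.80. Smarcc2, the alternative scaffold, read 7.72 on the Mof null array and 8.02 on the wild-type array, a difference of -0.29 on its 1 probe set. Alternative subunits of the Smarcd group link the complex to transcription factors. Smarcd1 read 8.38 on the Mof null array and 8.26 on the wild-type array, and Smarcd2 read 10.59 on the Mof null array and 10.44 on the wild-type array, with 0.30 on its other probe set. Smarcd3, the form used in heart and muscle development, read 7.61 on the Mof null array and 7.95 on the wild-type array, 1.26-fold lower. At these 3 positions, picked with earlier results known, the embryonic stem cell forms Smarca4, Smarcc1 and Smarcd1 were all higher, by 0.18, 0.38 and 0.12. The alternative forms Smarca2, Smarcc2 and Smarcd3 were all lower. Smarcd2, a further paralog left out of this choice, was higher by 0.16. Apart from Smarca2, each of these differences on the brightest probe set was close to or below the probe-set SD. The other expressed Smarcc1 probe sets, at 0.74 and 0.80, exceeded that SD. The 3 embryonic stem cell forms turned negative under the scaling on embryonic stem cell markers. The split did not extend to the neuronal forms Actl6b, Dpf1 and Dpf3, of which 2 were higher and 1 lower, with a median of 0.16.

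The remaining SWI/SNF subunits mostly lay slightly above 0. Arid2, which targets the PBAF form of the complex, read 11.29 on the Mof null array and 10.66 on the wild-type array, 1.54-fold higher, with probe sets from 0.31 to 0.97. Pbrm1, the polybromo subunit of PBAF, differed by 0.07 on its brightest probe set, and its 3 expressed probe sets stayed between 0.01 and 0.21. Phf10 and Brd7, PBAF subunits outside the member rule that were picked with their values in view, differed by 0.80 and 0.65. The 11 listed SWI/SNF subunit genes outside the rule, 8 higher and 3 lower, had a median of 0.16. Arid1a, the main ARID subunit of the BAF form, read 11.69 on the Mof null array and 11.38 on the wild-type array on its brightest probe set, and the other expressed probe set differed by -0.30, so no direction can be read. Its paralog Arid1b read 8.28 in Mof null cells against 8.52 in wild-type cells. Smarce1, a DNA-binding subunit, read 10.32 on the Mof null array and 10.22 on the wild-type array, but differed by -0.67 on another probe set and so had no settled direction either. Smarcb1, a core subunit and tumour suppressor, read 10.29 in Mof null cells against 10.05 in wild-type cells. The actin-related subunit Actl6a read 11.02 in Mof null cells against 10.74 in wild-type cells, with probe sets from 0.16 to 0.54. Its neuronal paralog Actl6b stood at 6.19 on the Mof null array and 6.24 on the wild-type array, just above the level filter. Of the PHD finger subunits, Dpf1 was 1.59-fold higher, with 7.76 on the Mof null array against 7.10 on the wild-type array, while Dpf2, the form found in most cells, read 10.88 in Mof null cells against 10.74 in wild-type cells. Dpf3, a muscle and neuronal form, read 8.02 in Mof null cells against 7.87 in wild-type cells. Over the 18 expressed SWI/SNF genes 13 were higher and 5 lower, 72.2% higher against 56.7% of all expressed genes. The SWI/SNF median was 0.15, against 0.10 over all expressed genes, and became -0.52 under the scaling on embryonic stem cell markers.

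**Figure D3:**
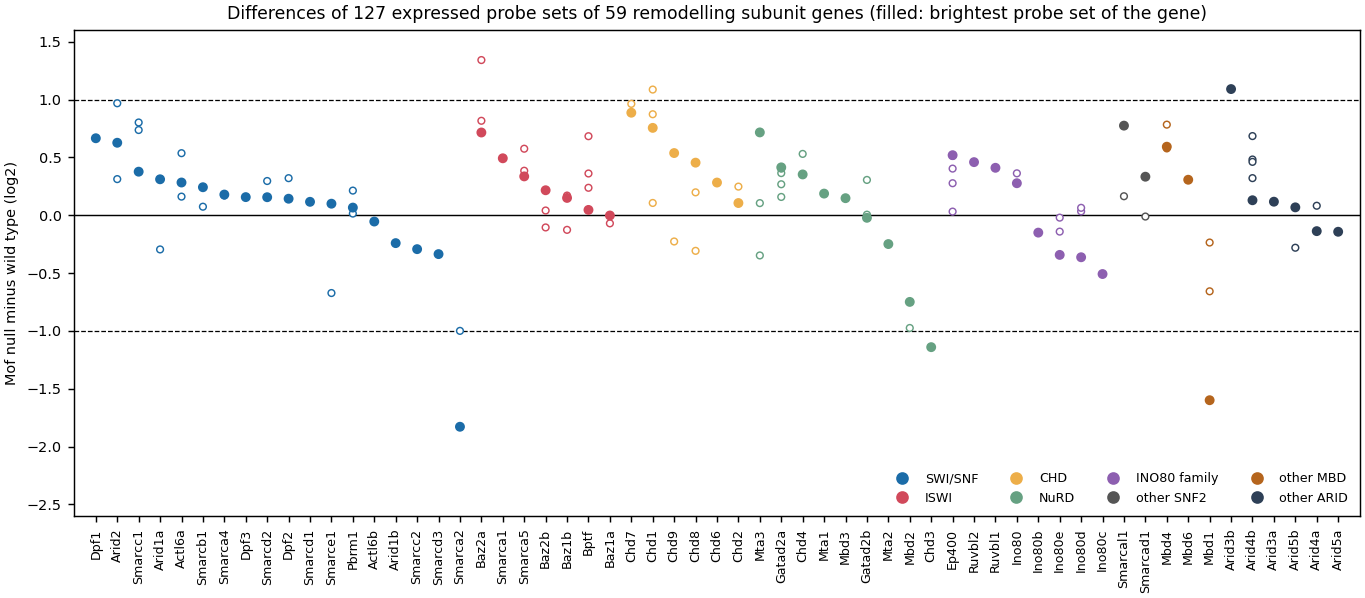
Difference (Mof null minus wild type, log2, y axis) of the 127 expressed probe sets of the 59 expressed remodelling subunit genes (x axis), grouped and coloured by family, with the brightest probe set of each gene filled and the others open, and dashed lines at 2-fold. Open points of Smarca2 and Mbd1 lie above their filled points, those of Baz2a and Chd1 reach past 2-fold, and those of Arid1a, Smarce1, Mta3 and Chd8 lie across 0 from the filled point.

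ISWI complexes, which space nucleosomes evenly, showed only small differences, none past 2-fold on a brightest probe set. The ATPase gene Smarca5, needed for proliferation of early embryonic cells, read 12.63 on the Mof null array and 12.30 on the wild-type array, and its probe sets differed by 0.34 to 0.58. Its paralog Smarca1 read 8.39 on the Mof null array and 7.89 on the wild-type array, a difference of 0.49, so the differences of these ATPase genes lay 0.16 apart, within the probe-set SD. Baz2a, a subunit of the nucleolar remodelling complex that silences ribosomal RNA genes, read 11.75 on the Mof null array and 11.04 on the wild-type array, 1.64-fold higher, and its other probe sets differed by 0.82 and 1.34. All probe sets of Baz2a thus pointed the same way, and 1 of 3 passed 2-fold. Bptf, the large subunit of the NURF complex, read 11.43 on the Mof null array and 11.39 on the wild-type array on its brightest probe set, and its 4 expressed probe sets ranged from 0.05 to 0.68. Baz1a, a subunit of the ACF complex, read 9.97 on both arrays. Baz1b, a subunit of the WICH complex, read 10.78 in Mof null cells against 10.63 in wild-type cells, and its expressed probe sets ranged from -0.13 to 0.17. Baz2b read 8.84 in Mof null cells against 8.62 in wild-type cells, with probe sets from -0.11 to 0.22, so these genes lay near 0 without a common sign. Of the 7 ISWI genes 6 were higher, against 56.7% of all expressed genes. The ISWI median was 0.22, against 0.10 over all expressed genes, and became -0.46 under the scaling on embryonic stem cell markers.

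All 6 CHD ATPase genes outside NuRD were higher on the Mof null array on their brightest probe sets, although none by 2-fold. Of all expressed genes 56.7% were higher, with a median of 0.10, close to the 0.11 of Chd2. Chd7, which binds enhancers of embryonic stem cells, read 9.13 on the Mof null array and 8.24 on the wild-type array, 1.85-fold higher, with 0.96 on its other probe set. Chd1, which is known to keep embryonic stem cell chromatin open, read 9.29 on the Mof null array and 8.53 on the wild-type array, 1.69-fold higher, and its 4 expressed probe sets ranged from 0.11 to 1.09. The paralog Chd2 read 9.44 in Mof null cells against 9.33 in wild-type cells, with 0.11 and 0.25 on its probe sets. Chd8, a regulator of Wnt target genes, read 10.53 on the Mof null array and 10.08 on the wild-type array on the brightest probe set, while others differed by 0.20 and -0.31. Chd9 read 9.49 on the Mof null array and 8.95 on the wild-type array, with -0.23 on its other probe set, so Chd8 and Chd9 have no settled direction. Chd6 read 8.22 in Mof null cells against 7.93 in wild-type cells. The median of the 6 genes was 0.50. It was 0.20 when all probe sets of a gene were averaged, 0.15 when each gene was taken on its least changed expressed probe set, and -0.18 under the scaling on embryonic stem cell markers, the last 2 being choices made after seeing the data.

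NuRD, which couples remodelling to histone deacetylation, differed in direction between paralogs at several positions. Its ATPase gene Chd3 read 8.24 on the Mof null array and 9.38 on the wild-type array, 2.20-fold lower, on the 1 probe set that names it. Chd4, the main NuRD ATPase of embryonic stem cells, read 11.08 on the Mof null array and 10.73 on the wild-type array, and its 3 probe sets differed by 0.35 to 0.53. The gap between the differences of Chd4 and Chd3 was 1.49 log2 units. Mbd2, the NuRD subunit that binds methylated CpG, read 8.50 on the Mof null array and 9.25 on the wild-type array, 1.68-fold lower, with -0.97 on its other probe set. Mbd3, which occupies the same position and binds methylated DNA poorly, read 9.36 on the Mof null array and 9.21 on the wild-type array, a difference of 0.15. The gap for Mbd3 and Mbd2 was 0.90.

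The scaffold genes of NuRD gave no uniform direction. Mta1, a scaffold that binds the deacetylases, read 10.07 on the Mof null array and 9.88 on the wild-type array. Mta2, its paralog, read 9.72 on the Mof null array and 9.97 on the wild-type array, a difference of -0.25. Mta3 differed by 0.72 on its brightest probe set, with 10.54 on the Mof null array against 9.82 on the wild-type array, by -0.35 and 0.11 on the others, so its direction depends on the probe set. The bridging subunit gene Gatad2a read 11.77 on the Mof null array and 11.36 on the wild-type array, and all 5 expressed probe sets were higher, by 0.16 to 0.41. Its paralog Gatad2b read 9.42 in Mof null cells against 9.44 in wild-type cells, and its other probe sets reached 0.31. Of the 9 expressed NuRD genes 5 were higher and 4 lower, 55.6% higher against 56.7% of all expressed genes. Over all expressed genes the median was 0.10 and the mean -0.05. The NuRD median was 0.15 and the mean -0.04, which differ in sign. The median was -0.02 without the probe sets whose design may match several transcripts (suffix _s_at or _x_at), among them the brightest of Mta3, and -0.53 under the scaling on embryonic stem cell markers.

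**Figure D4:**
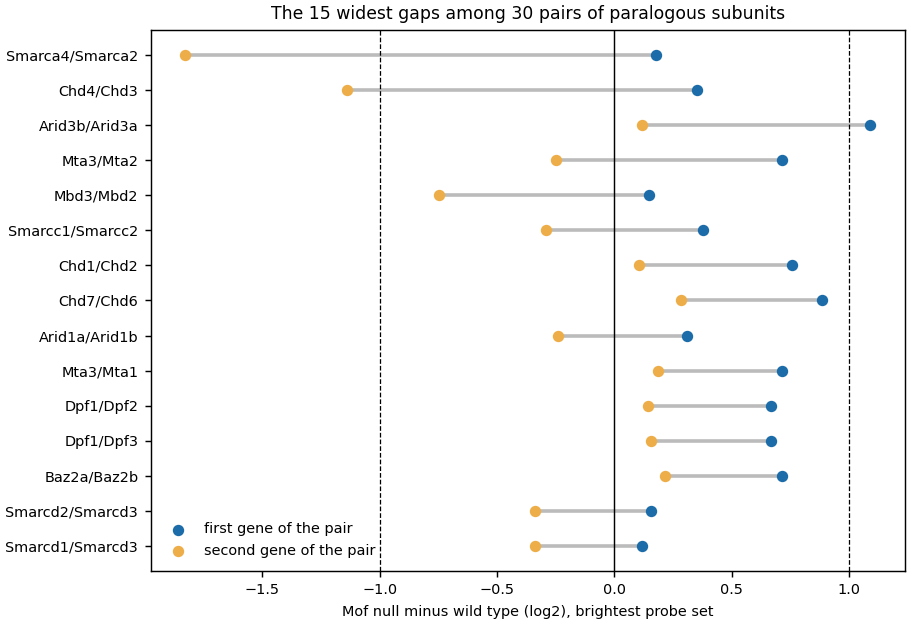
Differences (Mof null minus wild type, log2, x axis) of the 15 paralog pairs with the widest gaps among 30 pairs of expressed paralogous subunits, the first gene of each pair in blue and the second in yellow, with dashed lines at 2-fold. The pairs of Smarca4 with Smarca2 and of Chd4 with Chd3 span more than 1 log2 unit and straddle 0.

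The differences of paralogs were set side by side over 30 pairs of expressed genes in 19 groups, and pairs of the same group share genes. In 14 pairs the differences had opposite signs, and the median gap was 0.44 log2 units. In 18 pairs all expressed probe sets of the one gene lay above all those of the other. Where each gene of a pair has 1 expressed probe set, this holds at any gap, as for Ruvbl2 with Ruvbl1 at 0.05. The count is therefore no measure of agreement between probe sets. The probe-set SD within genes corresponds to an SD of 0.47 for a gap between single probe sets, and 14 pairs exceeded it. No such counts were made for pairs of unrelated genes, and the SD over all member genes was 0.53. The counts therefore do not show whether paralogs diverge more than other genes. A gap above 1 log2 unit was found in 2 pairs, Smarca4 with Smarca2 and Chd4 with Chd3, and next came Arid3b with Arid3a at 0.97, Mta3 with Mta2 at 0.97, Mbd3 with Mbd2 at 0.90 and Smarcc1 with Smarcc2 at 0.67. In each pair the gene named first is the one with the larger difference. The differences of the Mta3 probe sets lay on both sides of that of Mta2. A gap of this kind compares differences within a gene and is unaffected by any scaling that shifts all genes by the same amount.

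INO80 family complexes exchange and position nucleosomes carrying the histone variant H2A.Z. Of the 8 members 4 were higher and 4 lower. Of 21 further subunit genes of this family outside the member rule, 17 were higher, with a median of 0.26. Over all expressed genes 56.7% were higher, with a median of 0.10. The AAA+ ATPase genes Ruvbl1 and Ruvbl2, whose products form a joint ring, were higher by 0.41 and 0.46, with Ruvbl1 at 10.87 on the Mof null array and 10.46 on the wild-type array, and Ruvbl2 at 11.67 on the Mof null array and 11.22 on the wild-type array. Ep400, the ATPase of the TIP60 complex and a known requirement for embryonic stem cell identity, read 10.71 on the Mof null array and 10.19 on the wild-type array, 1.43-fold higher, and its 5 expressed probe sets ranged from 0.03 to 0.52. The ATPase gene Ino80 read 9.34 on the Mof null array and 9.06 on the wild-type array, with 0.28 and 0.36 on its probe sets. The genes Ino80b to Ino80e, which encode some of the accessory subunits, were lower on their brightest probe sets. Ino80c read 8.05 in Mof null cells against 8.56 in wild-type cells, 1.42-fold lower. Ino80d read 8.15 in Mof null cells against 8.51 in wild-type cells, but its other probe sets differed by 0.03 and 0.06. Ino80e read 8.99 in Mof null cells against 9.33 in wild-type cells, with -0.02 and -0.14 on its other probe sets. Ino80b read 7.44 in Mof null cells against 7.59 in wild-type cells. Ino80c, Ino80d and Ino80e exceeded the probe-set SD on the brightest probe set. Ino80c has only 1 probe set, so its difference could not be checked on another. The median of the 8 genes was 0.06, which lay between -0.04 and 0.28 over other filters, probe-set rules and normalizations and was -0.61 under the scaling on embryonic stem cell markers.

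Among SNF2 ATPases outside these complexes, Smarcal1, an annealing helicase of stalled replication forks, read 9.21 on the Mof null array and 8.44 on the wild-type array, 1.71-fold higher, with 0.16 on its other expressed probe set. Smarcad1, which restores silent chromatin after replication, read 10.94 on the Mof null array and 10.61 on the wild-type array, with -0.01 on its other expressed probe set. Taken by role, the catalytic genes included the AAA+ ATPase genes Ruvbl1 and Ruvbl2, which are not of the SNF2 type and were both higher. Of the 18 expressed catalytic genes of all families 16 were higher on the brightest probe set, with a median of 0.38. The exceptions were Smarca2 and Chd3. Of the 41 other subunit genes 26 were higher, with a median of 0.12, and of all expressed genes 56.7%. Among the 18 catalytic genes, Chd8, Chd9 and Smarcad1 have probe sets of both signs, and 3 (Chd1, Chd7 and Smarcal1) stayed positive under the scaling on embryonic stem cell markers.

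The MBD genes outside NuRD differed in direction and size. Mbd1, a repressor that binds methylated CpG, read 8.32 on the Mof null array and 9.92 on the wild-type array, a difference of -1.60 or 3.03-fold lower, on its brightest probe set. A second probe set read 8.21 on the Mof null array and 8.45 on the wild-type array, a difference of -0.24. The remaining expressed probe set read 5.71 on the Mof null array and 6.37 on the wild-type array, a difference of -0.66, and it passed the level filter through the wild-type array alone. All were lower, but 1 probe set was past 2-fold and another lay inside the probe-set SD. Mbd4, a glycosylase that repairs deaminated methylcytosine, was higher by 0.58 to 0.78 on its 3 probe sets, with 8.22 on the Mof null array against 7.63 on the wild-type array on the brightest. Mbd6, found in a deubiquitinase complex, read 8.43 in Mof null cells against 8.13 in wild-type cells.

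The ARID genes outside SWI/SNF were near 0 with the exception of Arid3b. Arid3b, a DNA-binding factor needed in embryonic development, read 8.88 on the Mof null array and 7.79 on the wild-type array, 2.13-fold higher, on the 1 expressed probe set that names it. The value was 0.99 after centring on the median expressed gene and 0.91 as the mean of its probe sets, both short of 2-fold. Its paralog Arid3a read 7.25 on the Mof null array and 7.14 on the wild-type array, a difference of 0.12. Arid4a, of the SIN3 deacetylase complex, read 7.87 in Mof null cells against 8.01 in wild-type cells, with 0.08 on its other probe set. Its paralog Arid4b read 9.89 in Mof null cells against 9.76 in wild-type cells, and its 5 expressed probe sets ranged from 0.13 to 0.68. Arid5a, an RNA-binding protein of immune cells, read 6.43 in Mof null cells against 6.57 in wild-type cells. Arid5b, a partner of a histone demethylase, read 11.01 in Mof null cells against 10.95 in wild-type cells, with probe sets down to -0.28.

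Of the 127 expressed member probe sets, 94 were higher, 74.0% of them, against 56.5% of all 20935 expressed probe sets. Those past 2-fold were 3 higher, against 4.49% of all expressed probe sets, and 3 lower, against 11.1%. The probe sets at least 2-fold higher belonged to Arid3b, Baz2a and Chd1. Of the 38 genes with several expressed probe sets, 21 had all of them higher, 5 had all of them lower and 12 had them on both sides of 0. The 12 were 31.6% of these genes, against 25.1% of all 5362 genes with several expressed probe sets. The 5 with all probe sets lower were Smarca2, Mbd1, Mbd2, Ino80e and Baz1a.

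Genes that the member rule does not take, namely partner subunits of the same complexes and further SNF2 ATPases outside them, were mostly slightly higher too. Both kinds are called partners here, and the 8 expressed SNF2 ATPases among them were all higher. Of 51 such genes listed, 50 were named on the array, 49 were expressed, and 41 of these were higher and 8 lower, against 56.7% higher of all expressed genes. Those at least 2-fold higher were 2 genes, 4.08% of the partners, against 5.09% of all expressed genes, and 0 were 2-fold lower, against 11.9%. Under the scaling on embryonic stem cell markers 8 partners stayed positive. Cecr2, a subunit of an ISWI complex, read 8.31 on the Mof null array and 7.08 on the wild-type array, 2.34-fold higher, with 0.49 on its other expressed probe set. Rad54l, an ATPase of homologous recombination, read 10.34 on the Mof null array and 9.10 on the wild-type array, 2.37-fold higher, and its 3 probe sets ranged from 1.24 to 1.43. The largest negative differences were those of the SWI/SNF subunit genes Bcl7b (-0.63) and Bicra (-0.54). The partners' median was 0.29, with 0.16 for SWI/SNF, 0.31 for ISWI, 0.29 for NuRD, 0.26 for the INO80 family and 0.53 for other SNF2 ATPases, against 0.10 over all expressed genes. Each of these medians became negative when 0.67, the median of the embryonic stem cell markers, was subtracted.

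**Figure D5:**
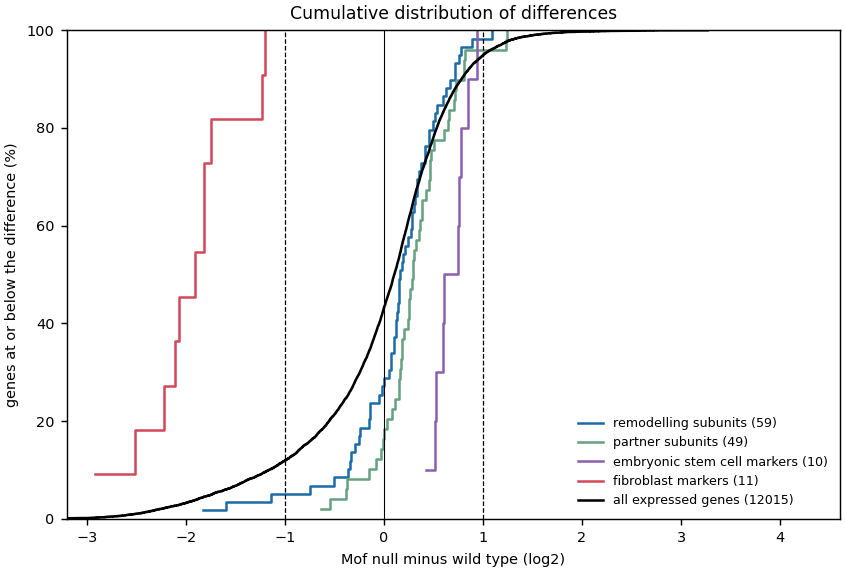
Cumulative share of genes (%, y axis) at or below a given difference (Mof null minus wild type, log2, x axis) for the 59 remodelling subunits, 49 partner genes (labelled partner subunits, further SNF2 ATPases included), 10 embryonic stem cell markers, 11 fibroblast markers and all 12015 expressed genes, with dashed lines at 2-fold. Of the 59 remodelling subunits 42 lie above 0, while the fibroblast markers lie wholly below -1.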

How the data were processed

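Expression was measured on 1 array for each genotype. The authors deposited log2 values for 45101 probe sets, computed by RMA with affy in R 2.10.0, per the submitters' processing notes. That they are log2 values is read from their range, 2.85 to 14.7 on the Mof null array and 2.77 to 14.6 on the wild-type array. RMA forces the arrays to nearly the same distribution and shrinks differences of dim probes, so shifts shared by most genes are hidden. The number of arrays limits the precision.

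Gene names came from the platform annotation, which listed 35890 probe sets, and the 34945 that name 1 gene and are no Affymetrix controls were used. The Entrez IDs of 34741 were found in RefSeq GRCm38.p6, the source of chromosomes and promoter windows. Each gene took its probe set with the highest mean, and the level filter was percentile 50 of all values. No test was run. Values on both arrays are given for genes past 2-fold, for paralog groups and for genes whose probe sets disagree. Named partners are those past 2-fold and the 2 largest in each direction, and named markers are the first 4 of each list. Phf10 and Brd7 fall outside this and were picked with their values in view. Members and lists were chosen with earlier results of these data known. Counting was checked on simulated differences with planted shifts of 2 log2 units and noise of SD 0.3. That check covers the counting rule, and not the reliability of the 2-fold counts in these data. Alternatives (probe-set rule, level filter, normalization, size limit) are in the closing section. Versions were Python 3.11.15, matplotlib 3.10.9, statsmodels 0.14.6 for lowess, scipy 1.17.1, pandas 2.3.3 and numpy 2.4.6.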

Additional observations from a re-analysis of the deposited data

How the results depend on the processing

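With other filters, probe-set rules (mean of probe sets, no _s_at or _x_at) and normalizations (centring, lowess, quantile), Smarca2, Mbd1 and Chd3 stayed at least 2-fold lower. For Mbd1 this depends on dim probe sets in 1 setting. Its mean of -1.12 includes probe sets below the level filter, and the median of its 3 expressed probe sets was -0.66. The count of members at least 2-fold higher was 1, and 0 after centring or with the mean of the probe sets of a gene. Under a 1.5-fold limit it was 9, and under 4-fold 0, with 0 lower. The partners at least 2-fold higher numbered 2, then 1 with mean probe sets and 1 with the percentile 75 filter, 11 at 1.5-fold and 0 at 4-fold, with 1 lower at 1.5-fold. All expressed genes were called higher and lower in 5.09% and 11.9%, in 17.3% and 19.2% at 1.5-fold, and in 0.291% and 3.24% at 4-fold. The median of the other MBD genes, 0.31, was -0.65 with the percentile 75 filter, which leaves fewer genes.

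Other settings were added after seeing the data. With the least changed expressed probe set of each gene 1 member (Chd3) stayed 2-fold lower, 1 partner was 2-fold higher, and the CHD and other SNF2 medians were 0.15 and 0.077. Relative to the embryonic stem cell marker median, which shifts all genes by -0.67, 0 members and 0 partners were 2-fold higher, 8 members and 4 partners 2-fold lower, and 10.2% of members higher by any amount. All genes were then higher in 0.624% and lower in 26.7%, so that 2.29% of the calls were higher, against 29.95%. The medians became -0.52 for all members, -0.52 for SWI/SNF, -0.46 for ISWI, -0.18 for CHD, -0.53 for NuRD, -0.61 for the INO80 family, -0.12 for other SNF2, -0.37 for other MBD and -0.58 for other ARID genes. This follows from the subtraction. No paired analysis was possible because each genotype has 1 array, and no array could be left out.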

Other observations

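Probe sets below the level filter and the chromosomes of the members were left out of the comparison above. Of the 30 member probe sets below the filter, 2 differed by at least 2-fold, both lower and both of Mbd1, with 3.68 on the Mof null array against 5.68 on the wild-type array for the one and 4.64 against 5.77 for the other. All 5 Mbd1 probe sets were therefore lower on the Mof null array, the smallest difference being -0.24. The differences of the 3 expressed Mbd1 probe sets spanned 1.36, a span that 5.82% of the 2216 genes with at least 3 expressed probe sets reached, and those of Mta3 spanned 1.06, which 10.9% reached.

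The 3 members on chromosome 18, Mbd1, Mbd2 and Ino80c, were all lower, with differences of -1.60, -0.75 and -0.51, while the median of the 296 expressed genes of that chromosome was 0.13, against 0.10 over all expressed genes. This grouping was chosen after the values were seen. A probe set that names Ino80 among 6 genes, and so is no member, read 13.75 on the Mof null array and 13.64 on the wild-type array.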
